A study of Rattus norvegicus with 16 samples.

Results

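Complement components and regulators were followed in the sciatic nerve of the rat after crush, through 9 genes chosen by symbol: C1qa, C1qb, C1qc, C1r, C2, C3, Cfb, Serping1 and Cd59. All 9 were among the 31038 genes measured. The rule names symbols and uses no measured value, although earlier results of these data were known when the genes were chosen. RNA was sequenced from purified Schwann cells and from whole nerve in 16 libraries, 2 in each of 8 groups. For both kinds of sample the groups were uncrushed nerve and nerve taken 3, 5 and 7 days after the left sciatic nerve had been crushed with forceps in animals of postnatal day 18. Schwann cells were obtained by immunopanning, in which a suspension of nerve cells passes over dishes coated with antibodies: dishes against CD45 and Thy1 removed leukocytes and fibroblasts, and a dish against O4 retained the Schwann cells. Whole nerve was extracted without dissociation. Every sample pooled 10 or more nerves. The segment past the crush was taken, or its counterpart in uninjured nerve, and no sham-operated group is part of the design. The age label was postnatal day 18 for every library, although collection followed the crush by days, so days after crush and age at collection cannot be told apart. The strain was not given in the sources used here. Expected counts per library ranged from 10555067 to 27562637. The sources describe a pool of nerves for each sample but do not say whether the 2 samples of a group shared animals or were prepared separately, so p-values measure only the spread between these samples.

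Complement is a cascade of proteases and opsonins. In the classical pathway C1q, a hexamer built from the C1qa, C1qb and C1qc chains, binds antibody or altered surfaces, and its partner proteases C1r and C1s then cleave C4 and C2 to make a convertase for C3. Cfb supplies the protease of the alternative pathway convertase, Serping1 (C1 inhibitor) blocks C1r and C1s, and Cd59 is a membrane-anchored protein that blocks assembly of the membrane attack complex. In injured nerve the cascade is known for tagging myelin debris for uptake by macrophages, and C1q is made chiefly by cells of the macrophage lineage.

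The labelled cell type was checked against its markers. Of 9 Schwann cell markers, 8 were called higher in purified cells than in nerve at day 3, 9 by day 5 and 6 by day 7, with none lower, and before crush 5 were higher and 4 lower. Sox10, a transcription factor of this lineage, was 59.1 to 95.5 FPKM in Schwann cells and 21.5 to 52.1 in whole nerve. All 14 macrophage and myeloid markers were below whole nerve in the purified cells, before crush and on each day after it. One library stood apart: Schwann cells at day 3, replicate 2, held 86.3 FPKM of these 14 markers in sum, where the other 7 Schwann cell libraries held 10.3 to 31.0, and it was also the highest of the 8 in markers of lymphocytes and mast cells (19.4 FPKM). The same held for endothelial and pericyte markers (16.4 FPKM, the others 2.03 to 15.02), neutrophil markers (1.02, the others at most 0.31) and the fibroblast genes Dcn, Lum, Pdgfra and Fn1. It did not hold for the fibroblast genes Col1a1 (179 FPKM, the others 146 to 301) and Col1a2 (82.8, the others 12.7 to 249). Nor did it hold for Thy1 (0.59, the others 0.04 to 0.99). All 7 fibroblast markers summed to 310 FPKM in this library and to 245 to 581 in the others. Beside several results at day 3 the value without this library is given as well.

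The set of promoters used here, from RefSeq (assembly GRCr8), held those of 4 of the 9 genes, C1qa, C1qb, C1r and C3. Those of C1qa and C1qb, whose transcripts rose together in whole nerve, and of C1r, which moved in opposite directions in Schwann cells and whole nerve, are shown as the 250 bases before the start of the gene. They lie at chr5:154419934-154420183 (minus strand), chr5:154407828-154408077 (minus strand) and chr4:159098763-159099012 (plus strand). Capitals mark matches on either strand to the PU box GAGGAA, a motif of the myeloid factor PU.1, or to the interferon-gamma activated site TTCNNNGAA.
C1qa: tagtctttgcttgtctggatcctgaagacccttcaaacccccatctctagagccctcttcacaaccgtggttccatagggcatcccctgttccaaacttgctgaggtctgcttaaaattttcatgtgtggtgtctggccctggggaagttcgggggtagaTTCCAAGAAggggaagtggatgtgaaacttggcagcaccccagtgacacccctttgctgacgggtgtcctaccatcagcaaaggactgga
C1qb: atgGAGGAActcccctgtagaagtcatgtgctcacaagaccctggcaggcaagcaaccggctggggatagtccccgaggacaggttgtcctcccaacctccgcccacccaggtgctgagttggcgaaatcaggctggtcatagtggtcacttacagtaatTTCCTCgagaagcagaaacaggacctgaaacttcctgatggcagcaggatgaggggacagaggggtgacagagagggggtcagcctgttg
C1r: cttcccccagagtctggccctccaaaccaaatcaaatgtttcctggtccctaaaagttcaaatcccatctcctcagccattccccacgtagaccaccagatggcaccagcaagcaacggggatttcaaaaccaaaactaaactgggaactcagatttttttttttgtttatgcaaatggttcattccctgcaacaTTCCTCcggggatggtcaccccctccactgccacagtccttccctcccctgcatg
C1qa held the gamma-activated site 90 bases before the start. C1qb held the PU box at 247 bases on the plus strand and at 90 bases on the minus strand, and C1r held it at 55 bases on the minus strand. The promoter of C3 held neither. The interferon-stimulated response element and the CAAT box CCAAT were also searched and matched none of the 4 promoters. Of 33469 rat promoters cut to the same length, 23.3% held the PU box, 7.67% the gamma-activated site, 3.41% the response element and 34.0% the CAAT box. The motifs were picked after the promoters had been seen, and no match overlapped another. The gamma-activated site reads the same on both strands.

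Levels are given as FPKM, fragments scaled to transcript length and to the library total, which allows genes of unlike length to be compared. Before injury the highest level among the 9 genes in Schwann cells was that of Cd59, at 484 ± 54.9 FPKM (SD, n = 2). C1r followed at 28.2 ± 2.81 and Serping1 at 3.64 ± 0.184 FPKM. The other 6 genes were below 0.5 FPKM in both uncrushed Schwann cell libraries, and C2 at 0.36 and 0.38 FPKM lay within the spread of C1qb at 0.18 and 0.48 FPKM. Uncrushed whole nerve gave another order. Cd59 stood at 347 ± 39.3 FPKM, Serping1 at 91.5 ± 10.8 and C1r at 61.2 ± 9.02, with no overlap between these 3 genes. C1qb at 29.1 ± 3.13 and C1qc at 25.9 ± 2.93 FPKM overlapped, and C1qa was at 13.3 ± 1.68. C2 at 5.64 ± 1.43 overlapped Cfb at 4.35 ± 1.29, and C3 was lowest at 0.80 ± 0.0424 FPKM. By day 7 Serping1 in whole nerve, at 335 and 347 FPKM, had come within the range of Cd59, at 316 and 364 FPKM.

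**Figure D1:**
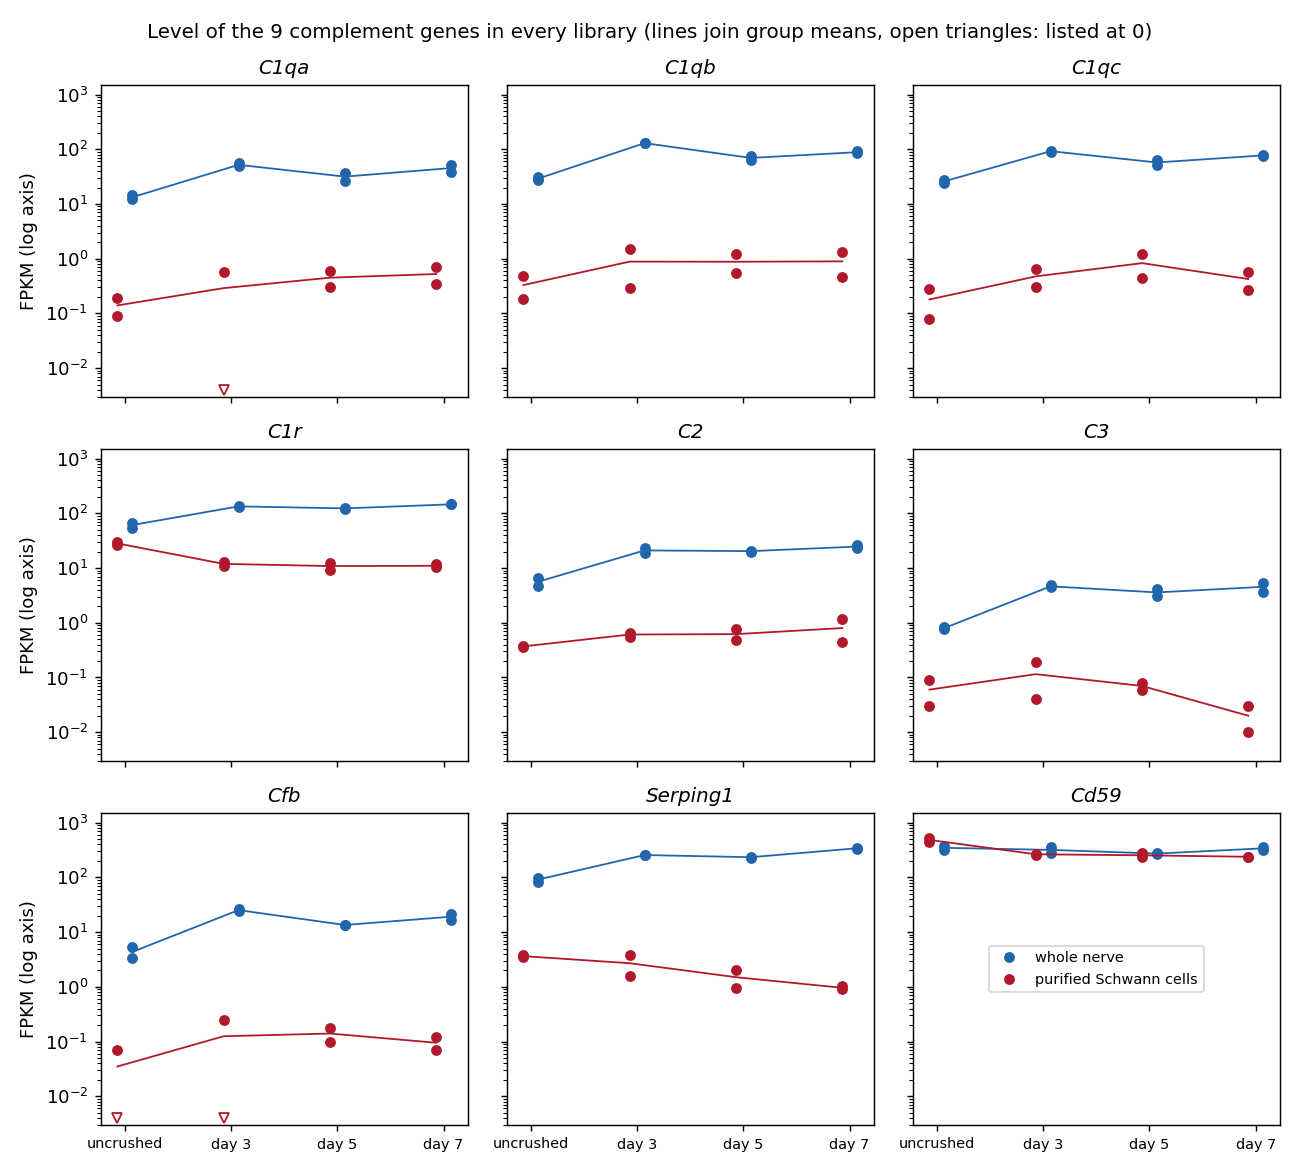
FPKM (log axis) of each of the 9 complement genes in uncrushed nerve and 3, 5 and 7 days after crush. Points are single libraries (red, purified Schwann cells; blue, whole nerve; 2 per group), lines join group means and open triangles mark libraries listed at 0. Whole nerve lies above Schwann cells for every gene other than Cd59, and C1r rises in whole nerve while it falls in Schwann cells.

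The 3 chains of C1q, the recognition unit of the classical pathway, rose together in whole nerve. C1qb stood at 31.4 and 26.9 FPKM before crush, 131 and 128 at day 3, 75.6 and 63.4 on day 5, then 92.0 and 85.0 on day 7. Every crushed library was above both uncrushed libraries, and day 3 was above days 5 and 7. C1qa went from 14.5 and 12.1 FPKM to 55.5 and 48.5 at day 3, 37.4 and 25.8 on day 5, then 52.3 and 38.6 on day 7. C1qc went from 28.0 and 23.9 FPKM to 89.6 and 94.9 at day 3, 63.9 and 50.9 on day 5, then 75.7 and 78.9 on day 7. At day 3 the log2 fold changes against uncrushed nerve were 1.55 for C1qa, 1.74 for C1qb and 1.41 for C1qc (adjusted p = 0.000156, 9.7e-07 and 7.48e-06, edgeR's quasi-likelihood test, Benjamini-Hochberg over all genes). From day 3 to day 5 all 3 chains fell, by 0.73, 0.91 and 0.70 on the log2 scale (adjusted p = 0.0365, 0.000971 and 0.00503, edgeR). With all 16 libraries in 1 fit the fall of C1qa was not called (adjusted p = 0.135, edgeR). The fall of C1qa and C1qc did not pass the threshold without 1 or another of the libraries compared: the adjusted p of C1qa became 0.207 without day 3 replicate 1, 0.104 without day 3 replicate 2 and 0.239 without day 5 replicate 2, and that of C1qc became 0.0540 without day 3 replicate 2 and 0.0555 without day 5 replicate 2. The chains kept similar proportions of their summed FPKM in the 8 whole nerve libraries, with 17.9% to 23.8% C1qa, 41.8% to 47.5% C1qb and 32.4% to 39.0% C1qc. In bulk RNA, more cells of a type and more RNA per cell cannot be told apart.

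In Schwann cells the C1q chains were close to the limit of counting. C1qb had 6 and 2 counts before crush, 4 and 36 at day 3, 20 and 8 on day 5, then 21 and 5 on day 7. The groups overlapped at day 3 and day 7, and 1 library, day 3 replicate 2, carried the highest value. The log2 fold changes of C1qb of 1.52 ± 0.94 at day 3, 1.37 ± 0.96 at day 5 and 1.41 ± 0.97 at day 7 (± SE) did not pass the test, with adjusted p of 0.201, 0.252 and 0.258 by edgeR. Without day 3 replicate 2 the day 3 value became -0.17 (adjusted p = 0.925, edgeR). C1qa, with 1 and 2 counts in uncrushed cells, and C1qc, with 1 and 3, were at or under a floor of 3 counts per library and did not enter the test. Scaled to library size, the counts of C1qc at day 5 over uncrushed gave a ratio of 4.67 with a 95% counting interval of 1.61 to 18.5, and those of C1qa a ratio of 3.24 with an interval of 0.890 to 17.7. These intervals are exact, and cover counting error but not the spread between libraries. Only C1qc at day 5 was called when all 16 libraries entered 1 fit (log2 fold change 2.13, adjusted p = 0.0220, edgeR). It was not called without the filter on low counts (adjusted p = 0.0892, edgeR) or by DESeq2 (adjusted p = 0.205).

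The summed level of the 3 chains in Schwann cells was 0.59 to 3.03 FPKM, against 62.9 to 277 in whole nerve. Markers of macrophages and other myeloid cells were read beside it. The summed FPKM of 14 such markers was 10.3 to 86.3 in Schwann cells and 551 to 3328 in whole nerve, and day 3 replicate 2 gave the 86.3 while the other 7 Schwann cell libraries stayed at or below 31.0. That library had 2.71 FPKM of C1q against 0.59 in replicate 1. It also had 1.29 against 0.18 FPKM of Ptprc, which encodes CD45, the antigen used for depletion, and 6.83 against 1.09 of Aif1. In Schwann cells 2 of the 11 markers tested were called higher at day 3 and none at days 5 and 7 by edgeR, with a median log2 fold change at day 3 of 0.83. Ptprc was 1 of these, at 2.76 (adjusted p = 0.0186, edgeR), and at 0.71 without replicate 2 (adjusted p = 0.469). Without replicate 2 none of 12 markers tested was called higher and 1 was called lower by edgeR. In whole nerve all 14 markers rose at day 3 and day 5, and 12 of 14 rose at day 7, with none falling. The part of myeloid cells in the C1q levels was not tested.

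**Figure D2:**
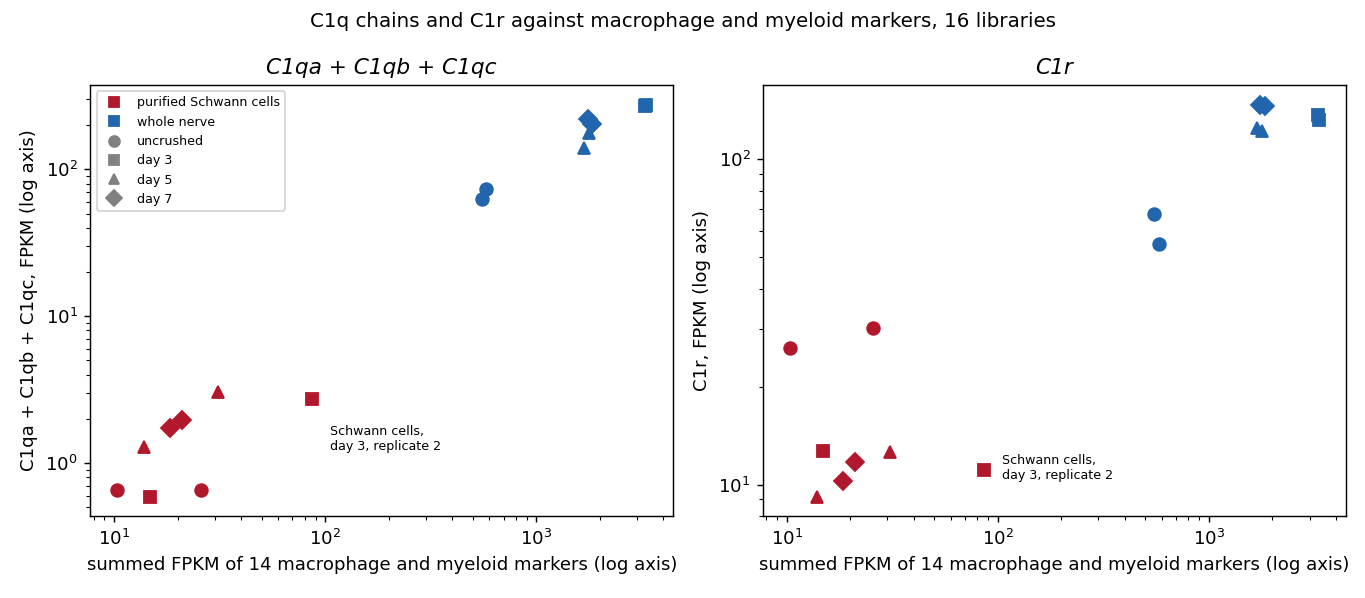
Summed FPKM of C1qa, C1qb and C1qc (left) and FPKM of C1r (right) against the summed FPKM of 14 macrophage and myeloid markers, all on log axes, 1 point per library (red, Schwann cells; blue, whole nerve; symbol by time). Schwann cells at day 3, replicate 2, lie at 86.3 FPKM of markers and 2.71 FPKM of C1q, whereas their C1r of 11.1 FPKM is near the 12.7 of replicate 1.

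C1r, the protease that starts the classical pathway once C1q is bound, behaved in another way. In Schwann cells it stood at 30.2 and 26.2 FPKM before crush, 12.7 and 11.1 at day 3, 12.6 and 9.18 on day 5, then 11.7 and 10.3 on day 7. Both uncrushed libraries lay above all 6 crushed ones, and the 3 days overlapped. The log2 fold changes were -1.19 ± 0.16, -1.39 ± 0.16 and -1.40 ± 0.16 (± SE, adjusted p = 0.000205, 8.18e-05 and 0.000114, edgeR). Over all 12 alternatives at each day they stayed between -1.66 and -1.10, and each passed the test. C1r of whole nerve rose over the same days, from 54.8 and 67.5 FPKM to 132 and 136, 122 and 125, and 147 and 145. Its log2 fold changes were 0.72 ± 0.10, 0.61 ± 0.10 and 0.85 ± 0.10 (adjusted p = 0.000242, 0.00108 and 0.000141, edgeR). Schwann cell C1r therefore went from 46.1% of the whole nerve level before crush to 8.90%, 8.82% and 7.53% at days 3, 5 and 7.

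Fibroblast markers were read beside C1r, since fibroblasts also make C1 proteases. Col1a1 in Schwann cells was 301 and 297 FPKM before crush and 146 to 243 FPKM after it, lower by 0.67 on the log2 scale at day 3 and 0.75 at day 5 (adjusted p = 0.00766 and 0.00418, edgeR), with a log2 fold change of -0.44 at day 7 (adjusted p = 0.0521, edgeR). Dcn, another fibroblast gene, was 16.9 and 7.92 FPKM before crush and 3.12 to 17.9 after it, with a fall of 1.53 on the log2 scale at day 5 (adjusted p = 0.0256, edgeR) and no call at days 3 and 7. Dcn and Lum were at or above 864 FPKM in every whole nerve library, and Lum was at or below 8.49 in Schwann cells. Of the 7 fibroblast markers tested in Schwann cells, 1 rose (Fn1) and 1 fell at day 3, 1 rose (Thy1) and 2 fell at day 5 and none was called at day 7 by edgeR. The summed FPKM of 7 fibroblast markers was 245 to 581 in Schwann cells and 4132 to 6386 in whole nerve. Col1a2 stood apart from the other 6: edgeR called it higher in the purified cells when uncrushed and at day 5, and it was listed at 0 in 4 of the 8 whole nerve libraries and at 0.02 to 293 FPKM in the other 4. It made up 12.7 to 249 FPKM of the sum in Schwann cells. Among the 7, the median log2 difference between uncrushed Schwann cells and uncrushed nerve was -5.46, against -1.43 for C1r. The part of fibroblasts in the fall of C1r was not tested.

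C2, which C1s cleaves, and the alternative pathway protease Cfb rose in whole nerve. C2 went from 6.65 and 4.63 FPKM to 23.0 and 19.0 at day 3, 20.9 and 19.9 on day 5, then 26.1 and 23.3 on day 7, with no overlap between crushed and uncrushed libraries. Its log2 fold changes were 1.47, 1.43 and 1.70 (adjusted p = 4.47e-05, 7.74e-05 and 2.91e-05, edgeR). Cfb rose from 5.26 and 3.43 FPKM to 26.7 and 23.8 at day 3, 13.6 and 13.4 on day 5, then 21.4 and 16.8 on day 7. The log2 fold changes of Cfb were 2.11, 1.20 and 1.71 (adjusted p = 8.04e-06, 0.000626 and 6.97e-05, edgeR). Like the C1q chains, Cfb was lower at day 5 than at day 3, by 0.90 on the log2 scale (adjusted p = 0.00833, edgeR). That call was lost in the fit of all 16 libraries (adjusted p = 0.0608) and without day 3 replicate 1 or either day 5 library (adjusted p = 0.0783, 0.0618 and 0.0718, edgeR).

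In Schwann cells neither gene reached the threshold. C2 had 13 and 11 counts before crush, 25 and 37 at day 3, 34 and 19 on day 5, then 50 and 13 on day 7. In FPKM the 6 crushed libraries, at 0.44 to 1.16, lay above the uncrushed ones, and the log2 fold changes of 0.74, 0.71 and 1.09 had adjusted p of 0.271, 0.290 and 0.122 (edgeR). The day 7 change of C2 rested on replicate 1: it was 1.61 without replicate 2 (adjusted p = 0.0353) and 0.20 without replicate 1 (adjusted p = 0.825, edgeR). Cfb had 0 and 2 counts before crush, 0 and 16 at day 3, 8 and 4 on day 5, then 5 and 2 on day 7, and was not tested. The ratio of Cfb counts at day 3 over uncrushed was 5.13 with a counting interval of 1.21 to 45.9, and all 16 counts at day 3 came from replicate 2. Without that library the count at day 3 was 0, with an upper limit of 9.23 on the ratio.

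C3, the component on which all pathways converge, had the lowest level of the 9 genes in whole nerve and one of the largest changes. Its FPKM was 0.77 and 0.83 before crush, 4.45 and 4.82 at day 3, 4.11 and 3.06 on day 5, then 3.72 and 5.37 on day 7, with every crushed library above both uncrushed ones. On the log2 scale these were changes of 2.12 ± 0.22, 1.76 ± 0.22 and 2.10 ± 0.22 (adjusted p = 2.84e-05, 0.000163 and 5.91e-05, edgeR). Schwann cells held 6 and 2 counts of C3 before crush, 3 and 25 at day 3, 7 and 5 on day 5, then 1 and 2 on day 7. The groups overlapped at day 3 and day 5, and at day 7 the higher library equalled the lower uncrushed one at 0.03 FPKM. The ratio of counts at day 7 over uncrushed was 0.323 with a counting interval of 0.0552 to 1.35, so that a change was not detectable at this depth.

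The 2 regulators differed from each other. Serping1, the C1 inhibitor, rose in whole nerve from 83.8 and 99.1 FPKM to 256 and 256 at day 3, 228 and 240 on day 5, then 347 and 335 on day 7. The log2 fold changes were 1.07 ± 0.10, 0.94 ± 0.10 and 1.48 ± 0.10 (adjusted p = 9.46e-06, 3.27e-05 and 2.14e-06, edgeR). Day 7 was above day 5 by 0.54 and above day 3 by 0.42 on the log2 scale (adjusted p = 0.00851 and 0.0113, edgeR), and in the fit of all 16 libraries neither step was called (adjusted p = 0.161 and 0.182). Leaving out day 5 replicate 1, day 5 replicate 2 or day 7 replicate 1 also ended the call of the first step (adjusted p = 0.0835, 0.0557 and 0.0521). Leaving out day 3 replicate 1, day 3 replicate 2 or day 7 replicate 1 ended that of the second (adjusted p = 0.0716, 0.0891 and 0.0521, edgeR). Schwann cells went the other way at days 5 and 7. Their Serping1 was 3.77 and 3.51 FPKM before crush, 1.58 and 3.82 at day 3, 2.05 and 0.95 on day 5, then 0.90 and 1.02 on day 7. Day 3 overlapped the uncrushed group, and days 5 and 7 lay below it. In log2 terms the changes were -0.38 ± 0.44 at day 3, -1.33 ± 0.46 at day 5 and -2.0004 ± 0.489 at day 7 (adjusted p = 0.487, 0.0329 and 0.00795, edgeR). Dcn, Lum and Pdgfra were likewise higher in day 3 replicate 2 (17.9, 8.49 and 0.60 FPKM) than in replicate 1 (6.77, 2.72 and 0.14 FPKM). So were Fn1 and Thy1, at 21.1 and 0.59 FPKM against 10.53 and 0.22. Col1a1 and Col1a2 were not, at 179 and 82.8 FPKM against 184 and 83.7. Without day 3 replicate 2, the day 3 value of Serping1 was -1.19 (adjusted p = 0.0770, edgeR), and without replicate 1 it was 0.07 (adjusted p = 0.899). The day 5 call was lost without uncrushed replicate 1, uncrushed replicate 2 or day 5 replicate 2 (adjusted p = 0.0841, 0.0718 and 0.189, edgeR), and the value at day 5 ranged from -2.02 without day 5 replicate 1 to -0.86 without replicate 2. The day 7 call was lost without day 7 replicate 1 (adjusted p = 0.0551). Beside these values, the log2 fold changes in Schwann cells at days 5 and 7 were -1.53 and -1.18 for Dcn, -1.41 and -1.75 for Lum, and -0.65 and -1.77 for Pdgfra, of which that of Dcn at day 5 was called (adjusted p = 0.0256, edgeR). Thy1 was called higher at day 5 (2.80, adjusted p = 0.0147, edgeR). Mean FPKM of Fn1 in Schwann cells went from 4.975 before crush to 7.405 at day 5 and 3.46 at day 7. That of Col1a1 went from 299 to 180 and 226, and that of Col1a2 from 131 to 128 and 75.1. Of 5 endothelial and pericyte markers tested, 1 fell at each day, with a median of 0.84 at day 3, -1.57 at day 5 and -1.48 at day 7. Over all genes tested in Schwann cells, 25.7%, 25.6% and 21.9% were called lower at days 3, 5 and 7. Before crush Serping1 in Schwann cells was 3.98% of the whole nerve level, and the median fibroblast marker was 2.80%. The part of fibroblasts and endothelial cells in the fall of Serping1 was not tested. Against its target protease, Serping1 was 0.0769 to 0.344 times the FPKM of C1r in Schwann cells and 1.47 to 2.36 times in whole nerve.

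Cd59, the inhibitor of the membrane attack complex, fell in Schwann cells from 523 and 445 FPKM to 258 and 272 at day 3, 274 and 233 on day 5, then 237 and 240 on day 7. Both uncrushed libraries were above all crushed ones. The log2 fold changes were -0.82 ± 0.12, -0.96 ± 0.12 and -1.07 ± 0.12 (adjusted p = 0.000276, 0.000103 and 7.28e-05, edgeR), and they stayed past the threshold in all 12 alternatives at each day. Even so, Cd59 had the highest level of the 9 genes in every Schwann cell library. In whole nerve its FPKM was 319 and 375 before crush, 355 and 282 at day 3, 282 and 263 on day 5, then 316 and 364 on day 7, and the crushed groups overlapped the uncrushed one at day 3 and day 7. The fit with TMM normalization gave -0.53, -0.76 and -0.44 on the log2 scale (adjusted p = 0.00711, 0.00117 and 0.0263, edgeR). Scaled to total counts without TMM, the same differences were -0.12, -0.36 and -0.03 (adjusted p = 0.437, 0.0367 and 0.848, edgeR), and only day 5 remained called. Leaving out TMM shifted the median of all genes in these contrasts by 0.41, 0.40 and 0.41 at days 3, 5 and 7, and the share of called genes that were higher went from 50.7%, 49.2% and 49.3% to 79.2%, 81.2% and 85.8%. FPKM follows the total, so that folds read from FPKM in whole nerve exceed the fitted ones. The other 8 genes were called higher at each day under both scalings, and without TMM the change of C1r was 1.13 at day 3 and 1.01 at day 5 and that of C1qc 1.11 at day 5.

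**Figure D3:**
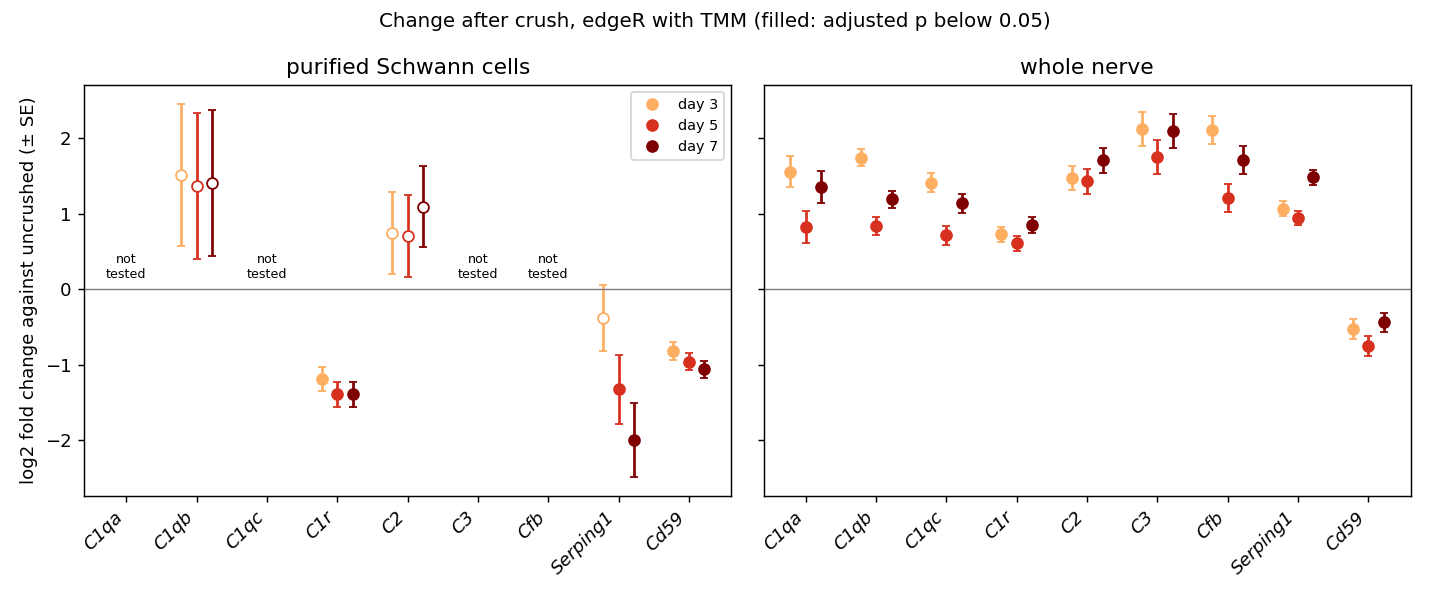
log2 fold change against uncrushed nerve (± SE) at days 3, 5 and 7 in Schwann cells (left) and whole nerve (right), from edgeR with TMM. Filled points passed an adjusted p of 0.05. All 9 genes are drawn for whole nerve, whereas C1qa, C1qc, C3 and Cfb are marked as not tested in Schwann cells. C1r, Serping1 and Cd59 lie below 0 in Schwann cells, 8 genes lie above 0 in whole nerve, and the points of Cd59 in whole nerve at days 3 and 7 lose their call when libraries are scaled to total counts.

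Counted over the genes, 5 of the 9 had enough counts to be tested in Schwann cells. At day 3, 2 of the 5 fell (C1r, Cd59), where 25.7% of all 14961 genes tested were called lower. At day 5 and day 7, 3 of the 5 fell (C1r, Cd59, Serping1), where the share over all genes was 25.6% and 21.9%. The median log2 fold change of the 5 was -0.38, -0.96 and -1.07, against 0.00, 0.06 and 0.06 over all genes. In whole nerve all 9 genes were tested among 15831, and 8 rose at each day, where 23.1%, 18.9% and 15.4% of all genes were called higher at days 3, 5 and 7. Cd59 was called lower at each day with TMM, where 22.5%, 19.5% and 15.9% of all genes were. The median over the 9 genes was 1.47, 0.83 and 1.35, against 0.00, -0.01 and 0.02 over all genes. Steps between the days after crush were tested as well. In whole nerve 4 of 9 were lower at day 5 than at day 3, against 5.87% of all genes. From day 5 to day 7, 1 of 9 (Serping1) was higher, against 3.65% of all genes. This count depends on the processing: C1qa, C1qb, C1qc and Cfb were also called higher without the filter on low counts (adjusted p = 0.00555, 0.0341, 0.00862 and 0.00366, edgeR), as was Cd59 (0.31 on the log2 scale, adjusted p = 0.0335). The first 4 were called too with the replicate number as a block (adjusted p = 0.0224, 0.0330, 0.0423 and 0.0417, edgeR), and C1qc by DESeq2 (adjusted p = 0.0434) and with upper quartile scaling (adjusted p = 0.0449). At day 7 against day 3, 1 of 9 was higher (Serping1; 9.85% of all genes) and 1 was lower (C1qb; 11.4% of all genes). The lower C1qb had a log2 difference of -0.55 (adjusted p = 0.00513, edgeR), a call that the fit of all 16 libraries did not make (adjusted p = 0.134). Cfb was also called lower at day 7 than at day 3 without the filter (adjusted p = 0.00981, edgeR). In Schwann cells Serping1 was called, lower at day 7 than at day 3 by 1.62 on the log2 scale (adjusted p = 0.0406, edgeR), against 10.7% of all genes called lower. Its step from day 3 to day 5 was called without the filter alone (-0.94, adjusted p = 0.0354, edgeR). The call between days 3 and 7 was lost without day 3 replicate 2 (log2 difference -0.80, adjusted p = 0.363), without day 7 replicate 1 (adjusted p = 0.189) and without day 7 replicate 2 (adjusted p = 0.122, edgeR).

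Compared directly with whole nerve, Schwann cells were lower in 8 of the 9 genes before crush, at day 3 and at day 5, and in all 9 at day 7. Of all 16829 genes tested, 35.3% were called lower before crush, 32.8% at day 3, 28.4% at day 5 and 28.7% at day 7. The smallest difference among the 8 was that of C1r before crush, at -1.43 ± 0.14 on the log2 scale (adjusted p = 7.48e-07, edgeR). It widened to -3.45, -3.55 and -3.79 at days 3, 5 and 7. Serping1 differed by -4.95 before crush and by -6.45, -7.33 and -8.55 after it. In FPKM, Serping1 of Schwann cells was 3.98% of that of whole nerve before crush and 0.281% at day 7. The C1q chains of Schwann cells were between 0.515% and 1.45% of the whole nerve level at all 4 time points. Day 3 rested on replicate 2 there: in replicate 1 alone C1qb was 0.224% and C1qc 0.325% of the whole nerve mean, and C1qa and Cfb were listed at 0. Without replicate 2 the day 3 difference of Serping1 was -7.32 and that of C3 was -6.80, from -5.11 with it, and both stayed called. With the low counts taken into account, whole nerve over Schwann cells gave a ratio of 121 for C1qa before crush, with a counting interval of 41.1 to 591, and of 232 for C3 at day 7, with an interval of 78.9 to 1127.

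Cd59 did not share this difference. Its log2 difference between Schwann cells and whole nerve was 0.17 before crush, -0.22 at day 3 and -0.16 at day 5 (adjusted p = 0.283, 0.167 and 0.342, edgeR), and -0.57 at day 7 (adjusted p = 0.00249). In FPKM it was 139% of the whole nerve level before crush and 70.1% at day 7. Without TMM the uncrushed difference was 0.48 (adjusted p = 0.00531, edgeR), a higher level in Schwann cells, while the median of all genes shifted by 0.30 and the share of called genes that were higher went from 45.2% to 58.9%. Without whole nerve day 3 replicate 2 the day 3 difference was -0.40 (adjusted p = 0.0396).

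**Figure D4:**
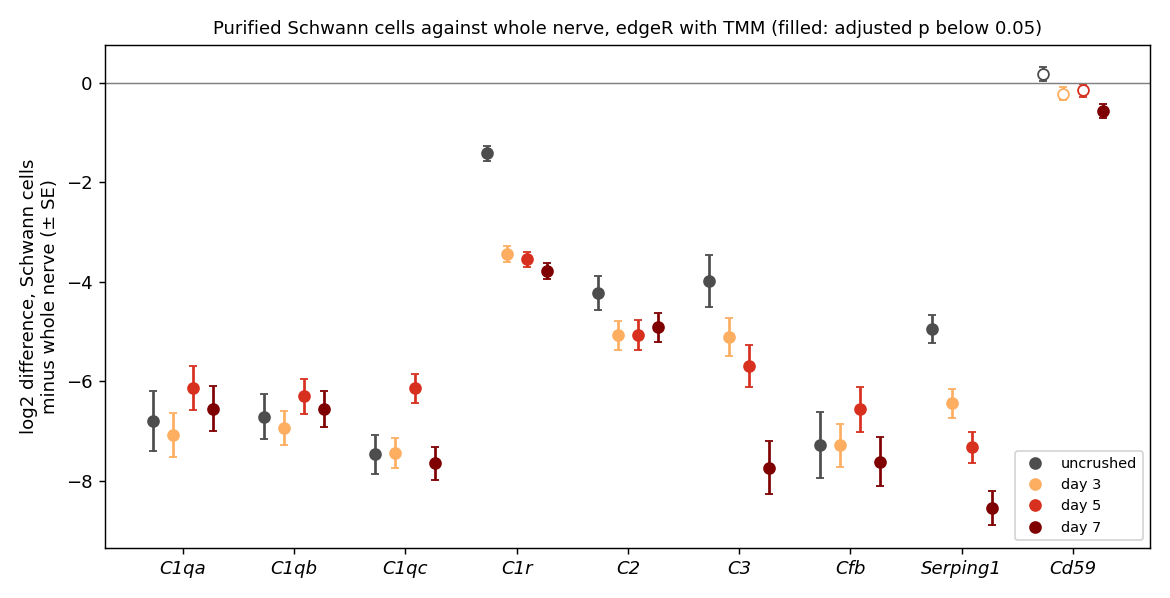
log2 difference between Schwann cells and whole nerve (± SE) for the 9 genes in uncrushed nerve and at days 3, 5 and 7, from the edgeR fit of all 16 libraries with TMM; filled points passed an adjusted p of 0.05. C1r and Serping1 move further below 0 after crush, and Cd59 is called lower at day 7 alone, at -0.57, while its uncrushed point becomes a called difference of 0.48 when libraries are scaled to total counts.

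Whether the effect of injury itself differed between Schwann cells and whole nerve was tested as a difference of differences in the fit of all 16 libraries. At day 3 and at day 5, 2 of the 9 genes passed, C1r and Serping1, both lower in Schwann cells, where 13.7% and 14.9% of all genes were called lower. At day 7, 4 of 9 passed (C1r, C3, Serping1 and Cd59), against 14.4%. For C3 the day 7 value was -3.75 ± 1.08 (adjusted p = 0.0192, edgeR), from 1 and 2 counts in Schwann cells, and the call was lost without uncrushed Schwann cell replicate 1 (adjusted p = 0.262) or Schwann cell day 7 replicate 1 (adjusted p = 0.0939). Without TMM the median of all genes in these tests shifted by -0.36, -0.26 and -0.26, and the share of called genes that were higher went from 47.4%, 45.8% and 44.6% to 19.5%, 24.9% and 23.2%. The values of C1r were -2.02 ± 0.20, -2.12 ± 0.20 and -2.36 ± 0.20 (± SE, adjusted p = 4.6e-06, 3.31e-06 and 1.55e-06, edgeR). Those of Serping1 were -1.498 ± 0.379, -2.38 ± 0.41 and -3.60 ± 0.45 (adjusted p = 0.0093, 0.000611 and 4.08e-05, edgeR). Both genes passed at each day in all 14 alternatives, and the day 3 value of Serping1 was -2.37 without Schwann cell day 3 replicate 2 and -1.07 without replicate 1. Fibroblast markers were lower in the same test in 0, 1 and 3 of 7 cases at days 3, 5 and 7, with none higher and medians of -0.07, -0.37 and -1.35. Dcn differed by -1.76 at day 5 and -1.67 at day 7 (adjusted p = 0.0225 and 0.0292), and Fn1 by -1.31 at day 7 (adjusted p = 0.00728, edgeR). The third at day 7 was Col1a2, which had 1.62 and 0 expected counts in uncrushed whole nerve. Their part in the difference of Serping1 was not tested. C3 passed at day 3 without replicate 2 (-2.82, adjusted p = 0.0337, edgeR). For Cd59 the value was -0.39 at day 3 and -0.33 at day 5 (adjusted p = 0.147 and 0.227, edgeR) and -0.74 at day 7 (adjusted p = 0.00994). Without TMM it passed at each of the 3 days, with -0.75, -0.59 and -0.998, the first 2 having adjusted p of 0.00641 and 0.0269 (edgeR). The C1q chains, C2 and Cfb did not pass at any day. The SE of C1qa reached 1.66 and that of Cfb 2.36, but at day 3 the SE of Cfb was 0.066 beside a value of -0.0045. Over the 14 alternatives that value of Cfb ranged from -5.54 to 3.43. These SEs therefore do not measure how well the low Schwann cell counts resolve a change.

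A list of 45 further complement genes was read beside the 9, of which 43 were in the tables. In whole nerve 32 were tested, of which 22 rose and 4 fell by day 3, 19 and 5 by day 5, and 18 and 4 by day 7. Over all genes in whole nerve 23.1%, 18.9% and 15.4% were called higher and 22.5%, 19.5% and 15.9% lower. In Schwann cells 19 were tested, and 5 rose and 5 fell at day 3, 4 rose and 5 fell at day 5 and 2 rose and 6 fell at day 7. Over all genes tested in Schwann cells, 26.9%, 29.0% and 25.0% were called higher and 25.7%, 25.6% and 21.9% lower at days 3, 5 and 7, so the shares of the list at day 3 were near the background. Without Schwann cell day 3 replicate 2, 1 of 20 further genes tested rose at day 3 (Itgax) and 5 fell. The median log2 fold change at day 3 was 1.11 in whole nerve and 0.48 in Schwann cells, against 0.00 over all genes in either. The list was drawn up by role, and 18 of its genes reached a mean of 10 FPKM in some group.

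Of the genes that act with C1r, C1s, the second protease of C1, stood at 83.3 and 93.8 FPKM in uncrushed whole nerve and 383 and 305 at day 7. In Schwann cells it was 4.65 and 4.42 FPKM before crush and 3.08 to 5.47 after it, with no change past the test. The FPKM of C1s was 1.39 to 2.61 times that of C1r in whole nerve and 0.154 to 0.492 times in Schwann cells. C4a and C4b, near-identical genes of the component cleaved by C1s, between which reads may be split in an uncertain way, were at 1.74 and 2.64 and at 1.54 and 1.29 FPKM in uncrushed Schwann cells. After crush C4a was 0.09 to 0.47 and C4b 0.13 to 0.29 FPKM there, with log2 fold changes at day 3 of -4.16 and -3.08, called at each day. Both rose in whole nerve, by 2.21 and 1.34 on the log2 scale at day 3. Among the terminal components, C7 rose in whole nerve to 228 and 235 FPKM at day 7 from 82.6 and 71.8. Cfd, the protease that activates Cfb, was called higher at days 5 and 7, with 97.0 and 50.7 FPKM in uncrushed nerve and 206 and 140 at day 5. C6, another terminal component, rose from 2.97 and 2.34 FPKM to 13.7 and 13.9 by day 7, and Cfp, which stabilizes the alternative pathway convertase, from 2.38 and 2.13 to 13.3 and 12.0 by day 3. Of the lectin pathway recognition genes, Fcnb rose from 0.82 and 1.21 FPKM to 15.9 and 14.03, Fcna from 25.2 and 13.4 to 49.5 and 43.2, and Colec12 from 21.8 and 21.9 to 56.8 and 57.3 by day 3. Itgam, a subunit of complement receptor 3, rose from 2.31 and 1.83 FPKM to 10.4 and 11.7.

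Of 11 regulators tested in whole nerve, 5 rose and 4 fell at day 3, 4 rose and 5 fell at day 5 and 4 rose and 4 fell at day 7, beside 23.1% of all genes called higher and 22.5% lower at day 3. Clu, a fluid-phase inhibitor of the terminal pathway, rose from 25.8 and 29.3 FPKM to 91.4 and 103 at day 3. Vtn, another such inhibitor, fell from 17.9 and 26.1 to 7.10 and 6.54 FPKM at day 3, and Cd55 fell by 0.61 on the log2 scale. All 7 receptors rose at day 3 and day 5 and 5 of 7 at day 7, where 23.1%, 18.9% and 15.4% of all genes did, among them C3ar1, from 3.59 and 5.20 to 21.5 and 21.2 FPKM at day 3. In Schwann cells the regulators at the highest level were membrane proteins. Cr1l, the rodent homologue of a C3b-binding regulator, was 124 and 179 FPKM before crush and 148 to 192 after it. Cd55, which accelerates decay of the C3 convertases, was 9.01 and 21.1 FPKM before crush and 19.1 to 30.4 after it. Neither passed the test in Schwann cells at any day, whereas Cd59 fell. C5ar1, the receptor for C5a, was called higher in Schwann cells at day 3, where replicate 2 held 1.21 FPKM against 0.20 in replicate 1. Its log2 fold change was 2.95 (adjusted p = 0.0352, edgeR), and 1.08 without replicate 2 (adjusted p = 0.516). Clu, called there at 3.02 (adjusted p = 0.00689), was at 2.03 without replicate 2 (adjusted p = 0.0766, edgeR). That library is also the highest of the 8 in myeloid markers, and their part in these values was not tested.

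**Figure D5:**
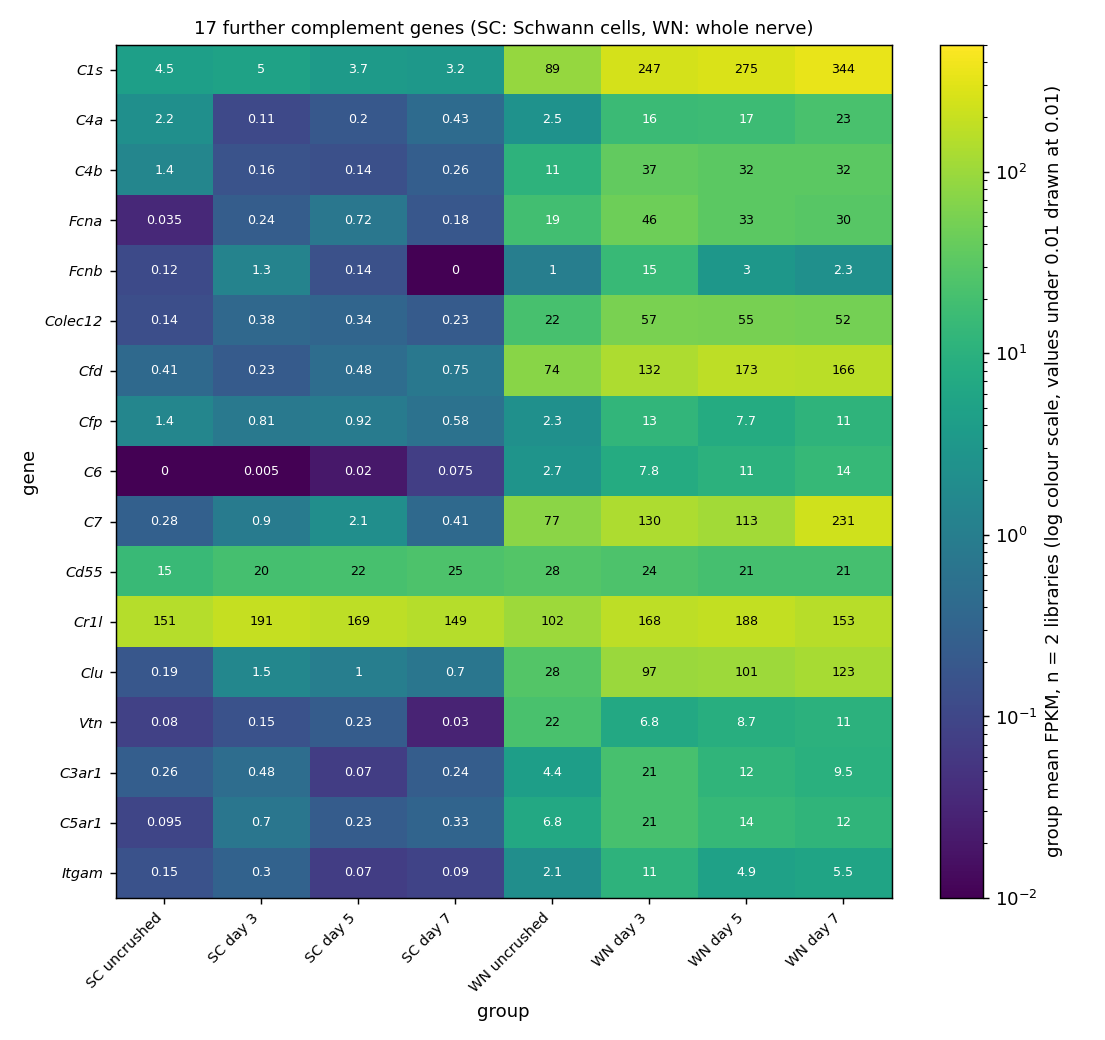
Group mean FPKM (n = 2 libraries, printed in each cell, log colour scale) of further complement genes that reached 10 FPKM in some group, in Schwann cells (SC) and whole nerve (WN) before and after crush. C1s is at 4.54 in uncrushed Schwann cells and 88.6 in uncrushed whole nerve.

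The genes most like each member over the 16 libraries were read from Pearson's correlation of log2(FPKM + 1) among 14686 genes, as a description only, since Schwann cell and whole nerve libraries form separate sets. For C1qb these were Rgs18 (r = 0.998), Rac2 (0.996) and Cd163 (0.996). For Cfb they were Igsf7, Ly86 and Clec4a3 (0.997 each), and for C3 St14, Gapt and Stap1 (0.995, 0.993 and 0.992). C1r was most like Ifi47, Pawr and MGC108823 (0.992, 0.989 and 0.988). Serping1 was most like Steap4, C1s and Tpm2 (0.996, 0.996 and 0.995). For Cd59 the first was Plce1 at 0.922, then LOC102553158 (0.911) and Abca8 (0.906), and its correlation with the other 8 members lay between 0.0590 and 0.350.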

How the data were processed

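RNA of 8 Schwann cell and 8 whole nerve libraries was sequenced by the authors after cDNA amplification without molecular identifiers. Per the labels and the study's methods, reads were aligned with STAR to Rnor_6.0 and quantified with RSEM. The deposited expected counts are estimates per gene, neither normalized nor filtered. The authors' FPKM is scaled to effective gene length and library total, and the authors' TPM has 1 fixed total. A deposited table of gene modules holds 8 columns of per-sample FPKM whose names do not give the tissue, and these were not used. Whether counting used strand was not given in the sources used here.

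Depth was 10555067 to 27562637 expected counts per library, and 3 counts per library was taken as the floor. Expected counts were rounded, and edgeR 4.0.16 gave quasi-likelihood tests (R 4.3.3) after TMM and filterByExpr, with Benjamini-Hochberg adjustment over all genes at 0.05. Schwann cells and whole nerve were each fitted alone (8 libraries), and all 16 in 1 fit for the comparisons between them. SE is the size of the log2 fold change over the square root of F. With 2 libraries a group, an exact permutation test cannot go below p = 0.333, so none was used. Ratios of low counts carry exact conditional 95% intervals, which cover counting error only. The tests were tested on simulated data for Schwann cells at day 3 against uncrushed. There edgeR recovered 138 of 196 changed genes, and 13 of its 151 calls were false. DESeq2 recovered 143 of 200, and 20 of its 163 calls were false. Alternatives were DESeq2 1.42.0, upper quartile scaling, other filters, other sets of libraries, a replicate block, leaving out each library, and scaling to total counts, which was added after the data had been seen.

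All 9 members are named, as are further complement genes of at least 10 FPKM in some group mean and the 3 genes most correlated with C1qb, C1r, C3, Cfb, Serping1 and Cd59, among genes of at least 1 FPKM. Of the 18 further genes this rule names, 1 is not reported here, though it is counted with its list. Members and lists were chosen with earlier results of these data known. Markers are named where they stand beside a result. Computation and plots used Python 3.11.15, numpy 2.4.6, scipy 1.17.1, pandas 2.3.3 and matplotlib 3.10.9.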

Additional observations from a re-analysis of the deposited data

Results flagged for a closer look

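In 8 cases the effect of injury on a gene differed between Schwann cells and whole nerve in the test of the difference itself (edgeR's quasi-likelihood test, adjusted p below 0.05 over all genes), always with the lower change in Schwann cells. C1r differed by -2.02 at day 3, -2.12 at day 5 and -2.36 at day 7 on the log2 scale, and Serping1 by -1.498, -2.38 and -3.60. Cd59 differed by -0.74 at day 7. C3 differed by -3.75 at day 7, where the Schwann cell libraries held 1 and 2 counts. The call of C3 was lost without uncrushed Schwann cell replicate 1 (adjusted p = 0.262) and without Schwann cell day 7 replicate 1 (adjusted p = 0.0939).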

How the results depend on the processing

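The number of the 9 genes called in each of the 13 comparisons (injury in either kind of sample, Schwann cells against whole nerve, and the difference in injury effect) stayed within 1.5 times its value under every alternative run. Leaving out 1 library at a time gave 2 to 2, 2 to 3 and 2 to 4 genes for injury in Schwann cells by day, 8 to 9 in whole nerve at each day, 8 to 8, 8 to 9, 8 to 8 and 9 to 9 for Schwann cells against whole nerve before crush and at days 3, 5 and 7, and 2 to 3, 2 to 2 and 3 to 4 for the difference in injury effect. Of the single results under alternatives, 1619 kept their direction and call, 38 lost a call, 21 gained one and 59 changed direction. The cause was not tested. Besides those given with the results, C1qa in whole nerve at day 5 lost its call without uncrushed replicate 2 (adjusted p = 0.0604) or day 5 replicate 1 (0.0912), as did Cd59 in whole nerve at day 3 without uncrushed replicate 2 (0.0535) or day 3 replicate 2 (0.0818), and at day 7 without uncrushed replicate 2 (0.154), without day 7 replicate 1 (0.182) or with all 16 libraries in 1 edgeR fit (0.0685). C2 gained a call in the difference at day 7 without Schwann cell day 7 replicate 1 (-1.64, adjusted p = 0.0431) and C3 at day 3 without Schwann cell day 3 replicate 2 (-2.82, adjusted p = 0.0337).

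None of the values that changed direction had been called. With scaling to total counts, the difference in injury effect became -0.0006 for C1qa and -0.11 for C1qb at day 7 and -0.34 for C1qc at day 3, and C2 in Schwann cells from day 3 to day 5 became 0.0352. C1r in Schwann cells from day 5 to day 7, near 0 throughout, became 0.0346 with upper quartile scaling, 0.0183 with total counts, 0.0062 with the replicate block, 0.0018 with 16 libraries in 1 fit and 0.0028 with the 4 libraries alone. C3 in whole nerve from day 3 to day 7 became 0.0072 with upper quartile scaling. The difference for Cfb at day 3 became 0.0267 with upper quartile scaling, 0.0181 without the filter, 0.0188 with the replicate block and 0.10 by DESeq2.

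Leaving out 1 library at a time, the log2 difference in injury effect ranged from -5.52 to 0.40 at day 3 and -0.23 to 0.88 at day 7 for C1qa, from -2.04 to 0.64, -0.32 to 1.27 and -0.92 to 1.01 at days 3, 5 and 7 for C1qb, from -0.75 to 1.05 at day 3 and -0.84 to 0.84 at day 7 for C1qc, and from -5.54 to 3.43, -0.30 to 4.15 and -1.35 to 3.10 at days 3, 5 and 7 for Cfb. In Schwann cells C1qb ranged from -0.17 to 2.36 at day 3 against uncrushed, -0.86 to 1.55 from day 3 to 5, -0.96 to 0.75 from day 5 to 7 and -1.10 to 1.59 from day 3 to 7. C1r ranged from -0.47 to 0.0265 from day 3 to 5 and -0.23 to 0.27 from day 5 to 7, C2 from -0.43 to 0.27, -0.52 to 0.89 and, from day 3 to 7, -0.55 to 0.86. Serping1 ranged from -1.19 to 0.0725 at day 3 and -1.13 to 0.0247 from day 5 to 7, and Cd59 from -0.24 to 0.0471 from day 5 to 7. In whole nerve C2 ranged from -0.18 to 0.11 from day 3 to 5, and from day 3 to 7 C1qa from -0.43 to 0.0054, C3 from -0.31 to 0.21 and Cd59 from -0.0802 to 0.28.

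Replicate numbers carry no meaning in the labels, and the deviations of same-numbered libraries correlated between -0.0402 and 0.0758, so they share only a number. With the number as a replicate block the 13 counts were 2, 3, 3, 9, 9, 9, 8, 8, 8, 9, 2, 2 and 4, as without it, and among the steps between days it ended the call of Serping1 in Schwann cells from day 3 to 7 (-1.59, adjusted p = 0.0639, edgeR). It added calls in whole nerve, of C1qa, C1qb, C1qc and Cfb from day 5 to 7 (adjusted p = 0.0224, 0.0330, 0.0423 and 0.0417) and of Cfb from day 3 to 7 (-0.41, adjusted p = 0.0394, edgeR). The FPKM of the deposited module table was not run as an alternative, since its columns do not give the tissue. Depth limits C1qa, C1qc, C3 and Cfb in Schwann cells, which had 0 to 25 counts a library.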

Other observations

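Beyond the genes named by rule, several further complement genes of Schwann cells changed, and they were chosen after their values had been seen. Csmd1, a large membrane protein with complement control repeats, stood at 8.72 and 8.74 FPKM before crush and at 0.22 and 0.25, 0.13 and 0.03, and 0.10 and 0.06 at days 3, 5 and 7. Its log2 fold changes were -5.15, -6.75 and -6.72 (adjusted p = 5.09e-07, 3.66e-07 and 5.92e-07, edgeR). Masp2, the protease of the lectin pathway, fell from 10.49 and 8.70 FPKM to 5.43 and 4.87 by day 3. It changed by -0.85, -1.24 and -0.94 on the log2 scale over the 3 days, and was 1.03 to 2.49 FPKM in whole nerve. Cd46, a membrane cofactor for cleavage of C3b, fell by 1.26, 1.48 and 1.35 on the log2 scale. Without Schwann cell day 3 replicate 2 the day 3 values were -5.24 for Csmd1, -0.77 for Masp2 and -1.14 for Cd46, and -4.46 for C4a and -3.20 for C4b, all still called by edgeR.

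Itgax, a subunit of complement receptor 4 that is usually read as a myeloid gene, had 3 and 2 counts in uncrushed Schwann cells, at the floor. It had 210 and 316 counts at day 3, 293 and 295 on day 5, then 48 and 50 on day 7. In FPKM, Schwann cells at day 3 held 2.85 and 2.50 of Itgax against 1.21 and 0.70 in whole nerve. Ptprc was 0.18 and 1.29 FPKM against 19.1 and 20.7. The part of myeloid cells in the Itgax counts was not tested.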
